A study of Mus musculus with 12 samples.

Results

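Perineuronal matrix genes were followed across cultured mouse cortical neurons in which an RNA editing enzyme or the RNA-binding protein Zfr had been lowered with a short hairpin RNA (shRNA). The set held the link proteins Hapln1 and Hapln4, the lecticans Acan, Bcan, Ncan and Vcan, and the tenascins Tnr and Tnc. It was taken by gene symbol and chosen by the level of Hapln1, which was far lower after Zfr knockdown than with either control hairpin, so the members' shZfr values are a description and carry no test here. The set had 8 members of 23955 genes in the tables, and 8 were among the 14785 genes that passed a filter on low counts.

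Primary neurons of C57BL/6J embryos were taken at E16.5, received lentivirus made from pGreenPuro shRNA vectors 1 day after seeding, and were collected 7 days after dissection. The groups were shAdar1, a hairpin against Adar, which encodes the editing enzyme ADAR1; shAdar2, against Adarb1, which encodes ADAR2; shZfr; and the control hairpins shControl1 and shControl2. There were 2 biological replicates in each of the 5 groups, and shAdar2 replicate 1 had been sequenced as 3 technical libraries from the RNA of the same neurons, which were summed, so that 12 libraries gave 10 samples. The design text sets shAdar1 and shAdar2 against shControl1, and shZfr against shControl2. All groups received a hairpin vector, and the labels name 1 hairpin per target. They do not say whether infected cells were selected, what the control hairpins target, or whether replicates came from separate litters, so p-values measure only the spread between these samples.

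Perineuronal nets are a dense extracellular matrix around the cell body and proximal dendrites of some neurons, best known around parvalbumin interneurons of the cortex. Hyaluronan forms the backbone, lecticans (chondroitin sulfate proteoglycans) bind it through their N-terminal domain, link proteins of the Hapln family clamp that bond, and tenascin-R joins the lecticans at their other end. Nets mature after birth. In the brain before that stage Vcan, Ncan and Tnc, the juvenile matrix, are known to be high and Acan and Hapln4 low.

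Each link protein gene lay beside a lectican gene, with no protein-coding gene between them in the RefSeq gene table. Hapln1 lay next to Vcan on chromosome 13, Hapln4 next to Ncan on chromosome 8, Hapln2 next to Bcan on chromosome 3, and Hapln3 next to Acan on chromosome 7. Promoter windows of 300 bases (250 before and 50 after the annotated start, RefSeq, GRCm38.p6) were at hand for 7 of the 8 members. The windows of Hapln1, its neighbour Vcan and Tnc (the first of its 2 listed starts) are printed 5′ to 3′ on the gene's strand, because the first was the member furthest below, and the others the members furthest above, the control levels in shZfr. Capitals mark matches to TATAAA or CCAAT on either strand.
Hapln1: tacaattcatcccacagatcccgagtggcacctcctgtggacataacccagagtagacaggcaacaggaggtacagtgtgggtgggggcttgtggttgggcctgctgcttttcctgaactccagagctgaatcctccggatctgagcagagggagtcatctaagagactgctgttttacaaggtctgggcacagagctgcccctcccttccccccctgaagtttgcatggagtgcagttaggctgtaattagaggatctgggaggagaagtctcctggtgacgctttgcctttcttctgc
Vcan: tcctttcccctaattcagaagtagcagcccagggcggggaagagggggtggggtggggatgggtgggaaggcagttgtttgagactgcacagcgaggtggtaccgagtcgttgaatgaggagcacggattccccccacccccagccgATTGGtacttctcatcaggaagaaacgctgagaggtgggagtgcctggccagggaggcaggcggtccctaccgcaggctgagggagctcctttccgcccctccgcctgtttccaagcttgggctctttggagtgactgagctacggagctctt
Tnc: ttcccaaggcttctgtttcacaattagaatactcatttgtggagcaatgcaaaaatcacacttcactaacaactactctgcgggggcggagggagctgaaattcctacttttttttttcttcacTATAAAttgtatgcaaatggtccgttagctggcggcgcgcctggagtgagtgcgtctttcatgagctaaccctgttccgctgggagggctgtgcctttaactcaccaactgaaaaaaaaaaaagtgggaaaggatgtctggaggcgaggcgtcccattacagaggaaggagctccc

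The Hapln1 window (chr13:89540386-89540685, plus strand) held 3 CpG dinucleotides and no match to either motif. The Vcan window (chr13:89742463-89742762, minus strand) held 12 CpG and 1 CCAAT match, which reads ATTGG on the printed strand. The Tnc window (chr4:64046966-64047265, minus strand) held 10 CpG and 1 TATAAA match. Over all 32851 promoter windows of this length, 13.6% held a TATAAA match and 37.4% a CCAAT match, and the median was 7 CpG (quartiles 3 and 20). The most among the members, 31 CpG, stood in the Acan window. These matches describe the letters of the windows, and no binding was measured.

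Each library held 15818943 to 29671858 expected counts. The targeted genes were lower where the labels say so, each with an adjusted p of at most 0.00034 (edgeR): Adar averaged 53.3 ± 2.43 CPM in shAdar1 against 172.2 ± 27.6 in shControl1, Adarb1 averaged 50.2 ± 2.53 in shAdar2 against 120.4 ± 2.77 in shControl1, and Zfr averaged 172.6 ± 0.118 in shZfr against 458.8 ± 52.6 in shControl2 (SD, n = 2 each). CPM are counts relative to the library total, scaled here with TMM factors. Zfr also averaged 188.2 ± 12.6 CPM in shAdar2, below 278.8 ± 15.6 in shControl1 (adjusted p = 0.0029), and Adarb1 averaged 47.3 ± 2.62 CPM in shZfr, below 95.7 ± 5.25 in shControl2 (adjusted p = 0.00038). The control hairpins differed in Zfr, with shControl2 at 164.6% of shControl1 (adjusted p = 0.00089, edgeR). In shZfr, Zfr thus stood at 37.6% of its shControl2 level but at 61.9% of its shControl1 level (adjusted p = 0.00094). In shAdar2 it stood at 41.0% of its shControl2 level, close to that of shZfr. The 2 shZfr samples stood apart in another way: their counts differed by 2.37 times counting noise (mean chi-square per gene), against 28 to 42.5 times between the replicates of shAdar1, shControl1 and shControl2 and 22.2 to 61.1 times among the technical libraries of shAdar2. They are labelled as biological replicates and were kept as 2 samples, but libraries from the same RNA also differed beyond counting noise, so separate cultures and 1 RNA sequenced in 2 libraries cannot be told apart here. The SDs of shZfr may therefore be technical, and results are also given with its samples summed to 1. All 5 groups shared 1 fit of the spread, so the shZfr samples also entered the p-values of the other comparisons. Fitted with only the 2 groups compared, 4047 genes were called in shAdar2 over shControl1, against 6856 in the shared fit. In shControl2 over shControl1 the count rose, to 7537 from 6367. Technical library 2 of shAdar2 replicate 1 differed from the others at several members, with Hapln1 at 9.28 CPM against 21.3 and 19.3, and Bcan at 107.2 against 45.4 and 45.7.

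Hapln1, the cartilage link protein that stabilises the lectican and hyaluronan bond, spanned the widest range of the set, with a 44.3-fold ratio between its highest and lowest group means. Its level was 87.1 and 85.4 CPM in shAdar1, 16.4 and 13.7 CPM in shAdar2, 2.36 and 1.96 CPM in shZfr, 40.3 and 26.4 CPM in shControl1, and 90.7 and 100.6 CPM in shControl2. No 2 groups overlapped, and the order from high to low was shControl2, shAdar1, shControl1, shAdar2 and shZfr. In shZfr it rested on 80 counts in all, against 1868 in shControl1 and 4105 in shControl2. The log2 fold change in shZfr was -5.47 ± 0.24 (SE) over shControl2 and -3.95 ± 0.24 over shControl1, a 44.4-fold and a 15.5-fold lower level. Ordered from the lowest fold change among the 14785 genes tested, Hapln1 stood at place 20 over shControl2 and at place 78 over shControl1.

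**Figure D1:**
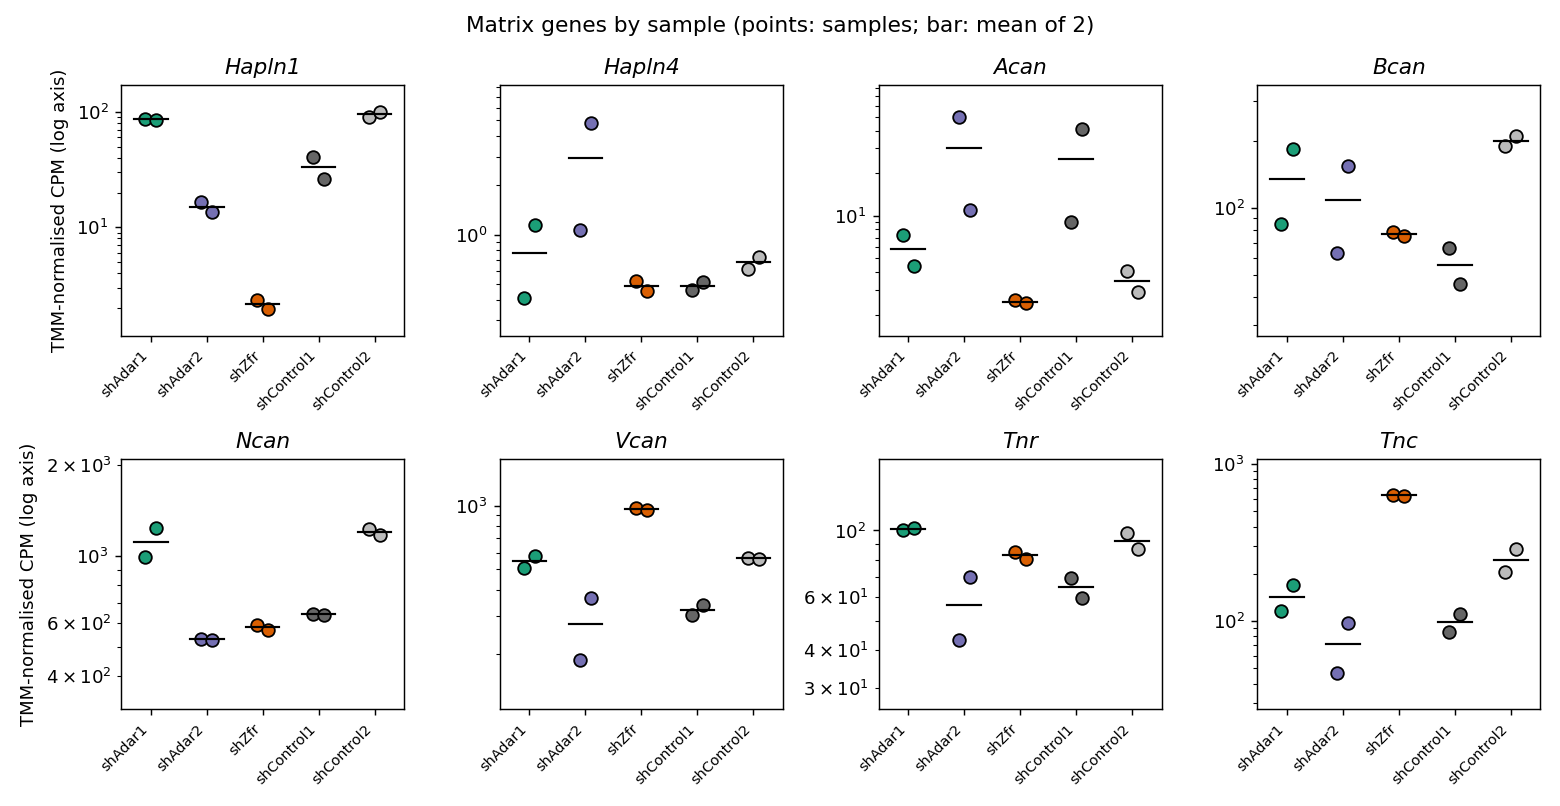
Level of each of the 8 matrix genes in each sample, as TMM-normalised CPM on a log axis whose range differs between panels (points: samples; bar: mean of 2). Hapln1 lies at 1.96 to 2.36 CPM in shZfr, below every other sample, while Vcan and Tnc lie above every other sample there.

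Outside the shZfr contrasts, Hapln1 passed the test between all pairs of groups except shAdar1 and shControl2. It rose in shAdar1 by 1.37 ± 0.19 on the log2 scale over shControl1 (adjusted p = 0.0021, edgeR quasi-likelihood test with Benjamini-Hochberg adjustment, n = 2 each), and fell by 1.14 ± 0.19 in shAdar2 (adjusted p = 0.0012). Both comparisons use the shControl1 samples, which also entered the contrasts that chose the gene. The same holds for every comparison with the shControl2 samples. Over shControl2, shAdar2 was lower by 2.66 ± 0.20 (adjusted p = 9.5e-06), whereas shAdar1 differed by -0.15 ± 0.18 (adjusted p = 0.57). The control hairpins differed from each other as well: Hapln1 was 2.87-fold higher in shControl2 than in shControl1 (log2 1.52 ± 0.19, adjusted p = 0.00025), so the higher level in shAdar1 was seen against shControl1 and not against shControl2. The contrast of shAdar2 with shAdar1, added after the values had been seen, uses no control sample and gave -2.51 ± 0.19 (adjusted p = 4.7e-05). These Hapln1 calls held in each alternative that was run, with the shAdar2 change over shControl1 between -1.57 and -0.81 (highest adjusted p = 0.021).

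Hapln4, the brain link protein of mature nets, rested on few counts. It had 9 and 31 counts in shAdar1, 100 and 89 in shAdar2, 9 and 9 in shZfr, 12 and 16 in shControl1, and 13 and 16 in shControl2. After scaling, shAdar2 stood at 1.06 and 4.85 CPM and the other samples at 0.41 to 1.14 CPM, so that only shAdar2 replicate 2 lay clear of the rest. Its change in shAdar2 over shControl1 was 2.53 ± 0.74 (adjusted p = 0.019, edgeR), but without shAdar2 replicate 2 it was 1.11 (adjusted p = 0.091), and without either shControl1 sample the adjusted p was 0.092 or 0.10. Over shControl2 it was 2.06 ± 0.73 (adjusted p = 0.033), and 0.65 without shAdar2 replicate 2 (adjusted p = 0.29). It was also lost without either shControl2 sample (adjusted p = 0.15 and 0.13). In shZfr the log2 fold change was -0.48 ± 0.82 over shControl2 and -0.02 ± 0.82 over shControl1. The other link proteins were also low: Hapln2, an oligodendrocyte link protein, had 108 counts over all samples and was not tested, and Hapln3 had 2 and 2 counts in shZfr against 11 and 16 in shControl2.

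Ncan, the juvenile lectican neurocan, was the most abundant lectican per length outside shZfr, at group means of 218.5 to 523.9 TPM (a unit scaled for gene length). Its level was 989 and 1233 CPM in shAdar1, 531.8 and 529.0 CPM in shAdar2, 592 and 569 CPM in shZfr, 643 and 638 CPM in shControl1, and 1227 and 1173 CPM in shControl2. The samples fell into a high pair of groups, shAdar1 and shControl2, which overlapped, and a low set of 3 groups, which did not overlap each other. Ncan rose in shAdar1 by 0.79 ± 0.12 over shControl1 (adjusted p = 0.0033) and fell in shAdar2 by 1.18 ± 0.12 relative to shControl2 (adjusted p = 4.4e-05). In shAdar2 over shControl1 the change was -0.27 ± 0.12 (adjusted p = 0.085; 0.035 by DESeq2). The technical libraries 1 to 3 of shAdar2 replicate 1 stood at 441, 768 and 453 CPM, and with 1 of them in place of their sum the change was between -0.41 (library 1, adjusted p = 0.030) and -0.01 (library 2, adjusted p = 0.97). In shZfr it was -1.05 ± 0.12 over shControl2 and -0.14 ± 0.12 over shControl1.

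Vcan, the large lectican versican of developing tissue, ran the other way to its neighbour Hapln1 in shZfr. Its level was 510 and 581 CPM in shAdar1, 186.0 and 364.8 CPM in shAdar2, 980.2 and 956 CPM in shZfr, 304.3 and 340.4 CPM in shControl1, and 567.7 and 559 CPM in shControl2. Both shZfr samples lay above all others, and shAdar2 replicate 1 lay lowest. The log2 fold change in shZfr was 0.78 ± 0.24 over shControl2 and 1.59 ± 0.25 over shControl1. Vcan fell in shAdar2 relative to shControl2 by 1.04 ± 0.25 (adjusted p = 0.0051), while its change over shControl1 was -0.23 ± 0.24 (adjusted p = 0.46). The change over shControl1 was -0.80 without shAdar2 replicate 2 (adjusted p = 0.00091) and turned to 0.17 without shAdar2 replicate 1. In shAdar1 the change over shControl1 was 0.76 ± 0.24 (adjusted p = 0.063; 0.0083 by DESeq2).

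The average length of the Vcan transcripts also differed between the groups. Vcan is spliced into forms that differ in the large exons that carry the chondroitin sulfate chains. The tables assign it 5 transcripts, whose GENCODE M21 lengths are 12427, 8332, 5702, 2321 and 2273 bases, and report for each library a length weighted by their estimated abundance. That mean length was 9988 and 10100 bases in shAdar1, 10042 to 10239 bases in the 4 shAdar2 libraries, 8986 and 9066 bases in shZfr, 10699 and 10628 bases in shControl1, and 9857 and 9697 bases in shControl2. The shZfr libraries were the shortest and the shControl1 libraries the longest, with no overlap with any other group. It was not tested, and it rests on an estimated split of reads between transcripts. Bcan, with 2 transcripts, stayed between 3131 and 3191 bases, and the other 6 members had 1 transcript each.

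**Figure D2:**
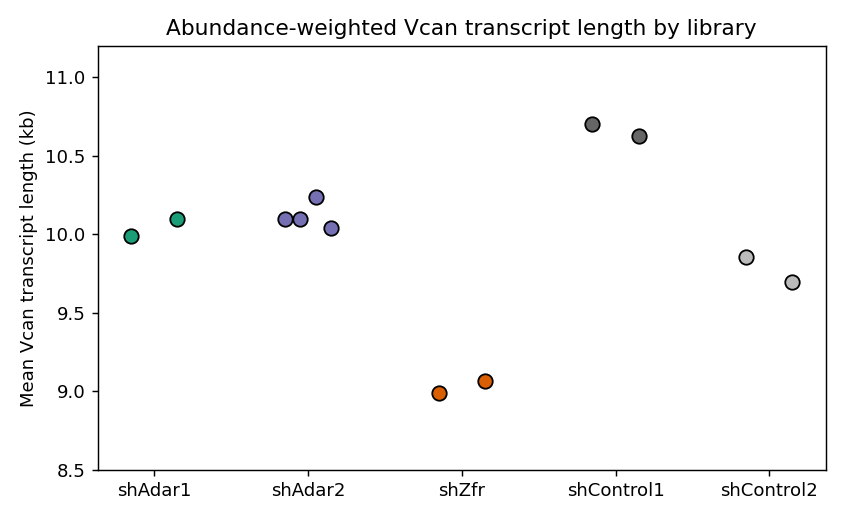
Abundance-weighted mean length of Vcan transcripts in kilobases in each of the 12 libraries, by group; the axis does not start at 0. The shZfr libraries lie at about 9 kb, below all others, and the shControl1 libraries lie highest.

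Bcan, the lectican brevican, which both neurons and glia make, differed more than 2-fold between the replicates of shAdar1 and of shAdar2. Its level was 85.2 and 184.6 CPM in shAdar1, 63.1 and 154.8 CPM in shAdar2, 78.0 and 74.7 CPM in shZfr, 66.0 and 45.7 CPM in shControl1, and 189.4 and 209.2 CPM in shControl2. Only shControl2 lay above all samples of the other groups, and by little, with its lower sample at 189.4 CPM against 184.6 CPM in shAdar1 replicate 2. The change in shAdar1 over shControl1 was 1.27 ± 0.42 (adjusted p = 0.069) and in shAdar2 0.96 ± 0.42 (adjusted p = 0.088). With 1 sample left out, the first was between 0.61 (adjusted p = 0.44, without shAdar1 replicate 2) and 1.705 (adjusted p = 0.036, without shAdar1 replicate 1). The second was between 0.17 (adjusted p = 0.71, without shAdar2 replicate 2) and 1.46 (adjusted p = 0.0079, without shAdar2 replicate 1). In shZfr it was -1.38 ± 0.42 over shControl2 and 0.45 ± 0.42 over shControl1, so its sign depended on the control hairpin.

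Acan, aggrecan, the lectican that defines mature nets, was the lowest lectican in every group mean and differed widely between replicates in shAdar2 and shControl1. Its level was 7.29 and 4.42 CPM in shAdar1, 49.7 and 11.0 CPM in shAdar2, 2.53 and 2.41 CPM in shZfr, 9.11 and 41.3 CPM in shControl1, and 4.06 and 2.88 CPM in shControl2. The 2 highest samples, shAdar2 replicate 1 and shControl1 replicate 2, stood far above their own partners. In shAdar1 the change over shControl1 was -2.11 ± 0.76 (adjusted p = 0.088), and it was -2.82 without shControl1 replicate 1 (adjusted p = 0.038) and -0.64 without shControl1 replicate 2 (adjusted p = 0.66). In shAdar2 it rose over shControl2 by 3.15 ± 0.80 (adjusted p = 0.0071), and the change was 1.66 without shAdar2 replicate 1 (adjusted p = 0.068) and 2.91 without shControl2 replicate 2 (adjusted p = 0.069). In shZfr the log2 fold change was -0.49 ± 0.86 over shControl2 and -3.35 ± 0.83 over shControl1, and the second was -1.88 without shControl1 replicate 2. Pvalb, which marks the interneurons best known for nets, had 12 counts over all samples, was at 0 in 5 of them and was not tested.

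Set per length, the lectican make-up of the shZfr samples differed from that of the others. Vcan made up 50.0 ± 0.05% of summed lectican TPM in shZfr, against 21.2 ± 1.7% in shControl1 and 19.7 ± 0.08% in shControl2 (SD, n = 2 each). TPM divides by the estimated mean length, which for Vcan was shortest in shZfr, so its share there rests partly on that estimate. Vcan averaged 319.8 TPM in shZfr, 85.3 in shControl1 and 178.7 in shControl2, and 968.0, 322.3 and 563.4 CPM. Ncan made up 38.0 ± 0.14% in shZfr, against 63.4 ± 0.54% in shControl1 and 57.7 ± 1.7% in shControl2. In shAdar1 and shAdar2, Vcan made up 21.5 ± 2.6% and 18.7 ± 5.1%. The summed lectican level was 640.0 ± 16.9 TPM in shZfr, between 401.5 ± 13.97 TPM in shControl1 and 908.4 ± 4.79 TPM in shControl2. Hapln1 stood at 6.97 ± 1.504 TPM per 100 lectican TPM in shAdar1, 2.18 ± 0.69 in shAdar2, 0.20 ± 0.02 in shZfr, 4.74 ± 1.41 in shControl1 and 6.61 ± 0.50 in shControl2. The low Hapln1 level in shZfr thus stood beside a lectican sum within the range of the control hairpins.

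**Figure D3:**
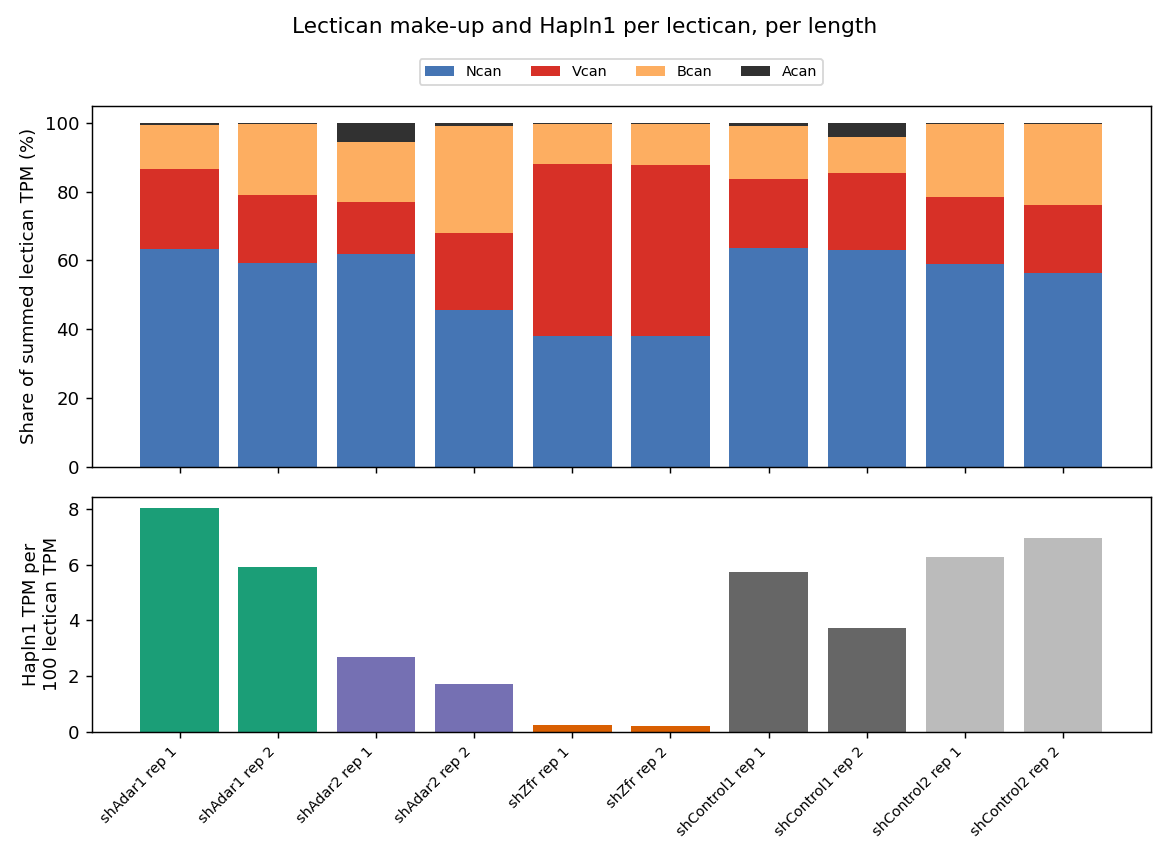
Upper panel: share of the summed TPM of the 4 lecticans that each makes up, in percent, in each sample. Lower panel: Hapln1 TPM per 100 lectican TPM. In both shZfr samples Vcan makes up 50.0% of the sum, and Hapln1 stands near 0.2 per 100.

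Tnc, tenascin-C, a matrix glycoprotein of progenitor zones and immature astrocytes, was the member furthest above the controls in shZfr. Its level was 115.6 and 170.2 CPM in shAdar1, 46.7 and 97.1 CPM in shAdar2, 636 and 628 CPM in shZfr, 85.7 and 111.8 CPM in shControl1, and 205.0 and 286.9 CPM in shControl2. Both shZfr samples lay above all others, and the 2 control groups did not overlap. The log2 fold change in shZfr was 1.36 ± 0.32 over shControl2 and 2.68 ± 0.33 over shControl1, and over shControl1 it stood at place 127 from the highest of 14785 genes. Tnc fell in shAdar2 relative to shControl2 by 1.79 ± 0.33 (adjusted p = 0.0012), while over shControl1 the change was -0.47 ± 0.32 (adjusted p = 0.25). That change was -1.09 without shAdar2 replicate 2 (adjusted p = 0.0075) and -0.03 without shAdar2 replicate 1 (adjusted p = 0.93).

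Tnr, tenascin-R, which links lecticans to one another in nets, was the most even member, with a 1.78-fold ratio between its highest and lowest group means. Its level was 100.1 and 101.9 CPM in shAdar1, 43.3 and 69.9 CPM in shAdar2, 84.8 and 80.6 CPM in shZfr, 69.7 and 59.8 CPM in shControl1, and 98.0 and 86.8 CPM in shControl2. The shZfr samples lay between the 2 control groups, with a log2 fold change of -0.16 ± 0.19 over shControl2 and 0.35 ± 0.19 over shControl1. Tnr rose in shAdar1 by 0.64 ± 0.19 over shControl1 (adjusted p = 0.048), a call that was lost without any 1 of the 4 samples (adjusted p of 0.093 to 0.25). In shAdar2 it fell by 0.72 ± 0.19 relative to shControl2 (adjusted p = 0.0094), while over shControl1 the change was -0.20 ± 0.19 (adjusted p = 0.41). That change was -0.59 without shAdar2 replicate 2 (adjusted p = 0.0043) and turned to 0.10 without shAdar2 replicate 1. Per length, the ratio of Tnc to Tnr was 5.75 ± 0.15 in shZfr, against 1.17 ± 0.34 in shControl1 and 2.03 ± 0.64 in shControl2.

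**Figure D4:**
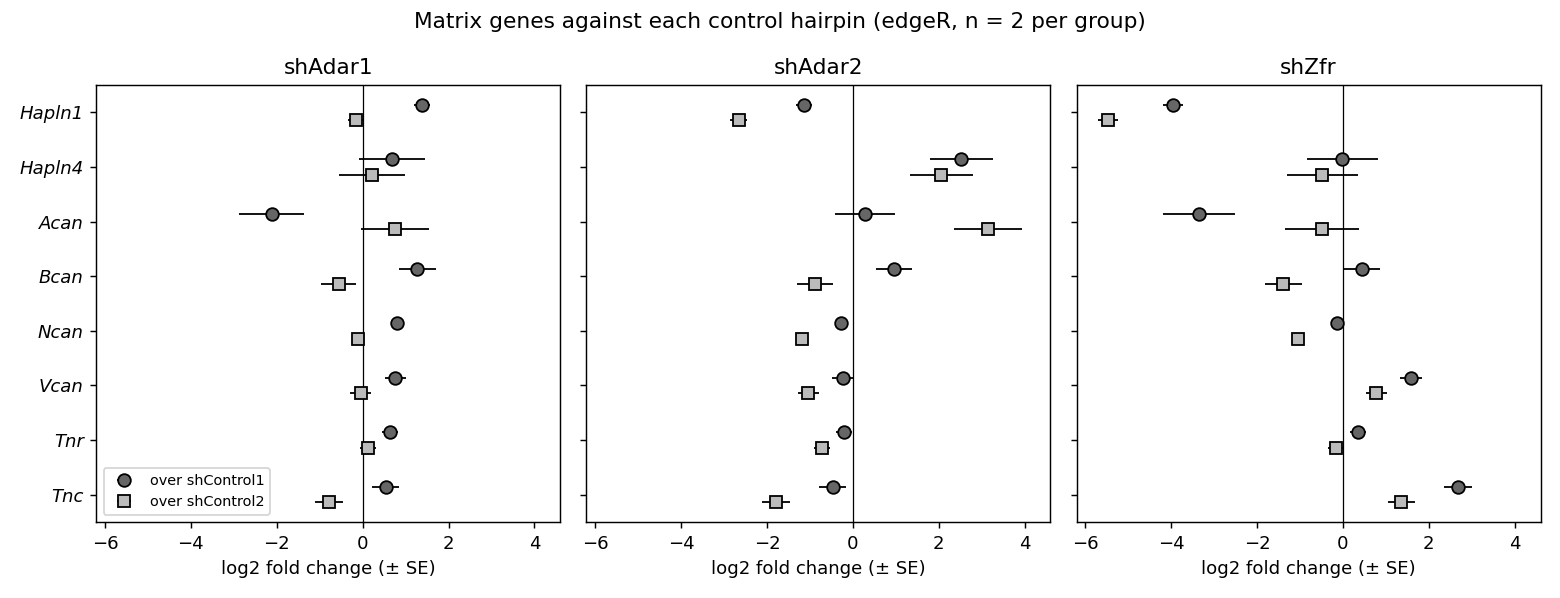
Log2 fold change (± SE, edgeR) of each member over shControl1 (circles) and over shControl2 (squares) in shAdar1, shAdar2 and shZfr. Hapln1 in shZfr lies furthest to the left over either control, and most members lie further to the right over shControl1 than over shControl2.

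The control hairpins were also set against each other. In shControl2, Bcan was higher than in shControl1 by 1.84 ± 0.43 on the log2 scale (adjusted p = 0.0071; 0.071 without shControl1 replicate 2), Ncan by 0.91 ± 0.12 (adjusted p = 0.00036), Vcan by 0.81 ± 0.24 (adjusted p = 0.024; 0.077 to 0.12 without any 1 of the 4 samples) and Tnc by 1.32 ± 0.32 (adjusted p = 0.0088; 0.069 without shControl1 replicate 1 and 0.072 without shControl2 replicate 2). Acan was lower by 2.86 ± 0.79 (adjusted p = 0.016), with a log2 difference of -1.397 without shControl1 replicate 2 (adjusted p = 0.19); without either shControl2 sample the adjusted p was 0.074 or 0.13. The changes of Hapln1 and Ncan between the control hairpins were thus the ones that held with any sample left out.

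The members' calls (adjusted p under 0.05, edgeR) are set beside the share of all genes called. In shAdar1 over shControl1, 3 of 8 members were higher (Hapln1, Ncan and Tnr) and 0 lower, where 16.2% of all genes were called, 9.33% higher and 6.9% lower. In shAdar2 over shControl1, 1 was higher (Hapln4) and 1 lower (Hapln1), where 46.4% of all genes were called, 23.2% higher and 23.2% lower. Over shControl2, 0 of 8 were called in shAdar1 by edgeR and 0 by DESeq2, with 1 at an unadjusted p under 0.05 (Tnc), where 33.2% of all genes were called. In shAdar2 over shControl2, 2 were higher and 5 lower, where 59.5% of all genes were called, 32.2% higher and 27.3% lower. Between shControl2 and shControl1, 5 were higher and 1 was lower, where 43.1% of all genes were called, 19.9% higher and 23.2% lower.

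In shZfr the members' calls are not counted, since the same contrasts chose the set. Of all genes, 30.7% were called in shZfr over shControl2, 16.7% higher and 14.1% lower. Over shControl1, 46.2% of all genes were called, 22.8% higher and 23.4% lower. The median log2 fold change of the members was 0.72 in shAdar1 and -0.22 in shAdar2 over shControl1, and -0.48 in shZfr over shControl2, beside 0.02, 0.04 and 0.05 for all genes. With the other control hairpin it was -0.08 in shAdar1 and -0.96 in shAdar2 over shControl2, and 0.17 in shZfr over shControl1. All genes then had medians of 0.03, 0.09 and -0.03. In shControl2 over shControl1 the member median was 0.86, beside -0.05 for all genes, so these medians depended on the control hairpin. These comparisons share control samples, apart from that of shAdar2 with shAdar1, where 1 member was higher (Acan) and 5 lower (Hapln1, Ncan, Vcan, Tnr and Tnc), and where 38% of all genes were called, 17% higher and 21% lower.

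Summing the shZfr samples to 1 moved the log2 fold changes of the members by at most 0.01 over shControl2 and 0.03 over shControl1. Vcan was 1.72-fold and Tnc 2.57-fold higher in shZfr than in shControl2, and 3.00-fold and 6.40-fold higher than in shControl1.

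The enzymes and partners of the matrix were read from 6 lists, and the genes with the lowest p in each are named. Of 21 tested genes of chondroitin sulfate synthesis, 2 were higher and 6 lower in shZfr than in shControl2, where 30.7% of all genes were called. Ust, the uronyl 2-O-sulfotransferase, fell to 5.80 ± 0.47 CPM in shZfr, against 37.1 ± 1.25 CPM in shControl2 (SD, n = 2 each; log2 -2.68 ± 0.17, adjusted p = 3.0e-05), and Chst12, a chondroitin 4-O-sulfotransferase, fell to 4.20 ± 0.82 CPM, against 9.45 ± 0.26 CPM in shControl2 (log2 -1.17 ± 0.19, adjusted p = 0.0020). Of 11 tested genes for link proteins and hyaluronan metabolism, 2 were higher and 3 lower in shZfr, among them Has3, a hyaluronan synthase (log2 -0.94 ± 0.16, adjusted p = 0.0023). These counts depended on the control hairpin. Over shControl1, where 46.2% of all genes were called, 6 genes of chondroitin sulfate synthesis were higher and 5 lower. Of the hyaluronan genes, 4 were higher and 1 was lower over shControl1. Over shControl1 the log2 fold changes were -2.49 ± 0.17 for Ust (adjusted p = 1.3e-05), -1.15 ± 0.19 for Chst12 (adjusted p = 0.0011) and -0.92 ± 0.16 for Has3 (adjusted p = 0.0014).

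Over shControl2, 30.7% of all genes were called in shZfr. Of 17 tested matrix proteases and inhibitors, 1 was higher and 2 were lower in shZfr than in shControl2. Timp4, a metalloprotease inhibitor, fell by 2.96 ± 0.45 (adjusted p = 0.0013). Of 17 tested receptors and ligands, 7 were higher and 5 lower, and Plxna1, a co-receptor for the semaphorin Sema3a that nets bind, rose by 0.85 ± 0.14 over shControl2 (adjusted p = 0.0021) but was lower by 0.80 ± 0.14 over shControl1 (adjusted p = 0.0015). Of 20 other neural proteoglycans and tenascins, 4 were higher and 6 lower: the glypican Gpc2 rose by 1.61 ± 0.14 (adjusted p = 8.4e-05), Cspg5, neuroglycan C, fell by 0.88 ± 0.11 (adjusted p = 0.00054), and the glypican Gpc5 fell by 1.92 ± 0.28 (adjusted p = 0.00095). Of 13 tested genes of an interneuron list, 1 was higher and 6 were lower. Pvalb was not tested and the list held general interneuron genes such as Gad1 and Gad2, so it does not single out cells that bear nets. Erbb4, a neuregulin receptor, fell by 1.23 ± 0.13 (adjusted p = 0.00026), and Lhx6, an interneuron transcription factor, fell by 1.28 ± 0.24 (adjusted p = 0.0041). The higher one was Otx2, a homeoprotein that nets take up, at 4.50 ± 0.10 CPM against 0.84 ± 0.30 CPM in shControl2 (log2 2.42 ± 0.48, adjusted p = 0.0051). The Otx2 call was lost without shControl2 replicate 1. With the shZfr samples summed to 1, each list had fewer calls, and so did all genes. The smaller list counts are therefore not read as a result about the lists. Of the 18 genes with the lowest p in these lists, 10 stayed under 0.05 over shControl2 with any 1 sample left out: Ust, Chst12, Has3, Timp4, Plxna1, Gpc2, Cspg5, Gpc5, Erbb4 and Lhx6. Cemip, Hapln3, Chpf, Adamts8, Timp2, Sema3a and Rtn4rl2 also passed with all samples, but reached an adjusted p of 0.054 to 0.19 with 1 sample left out. The list counts also depended on the control hairpin. Over shControl1, where 46.2% of all genes were called, 7 proteases and inhibitors were higher and 1 was lower. The counts over shControl1 were 7 and 5 for receptors and ligands, 7 and 4 for other proteoglycans, and 3 and 3 for interneuron genes. Over shControl1, Timp4 (log2 -1.80), Gpc2 (0.66), Gpc5 (-2.96), Erbb4 (-1.69), Lhx6 (-0.88) and Otx2 (2.07) passed in the same direction, Cspg5 did not pass (-0.28 ± 0.11, adjusted p = 0.064), and Timp2 passed with the opposite sign (-0.43 over shControl2, 1.37 over shControl1).

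In shAdar1 over shControl1, where 16.2% of all genes were called, 0 of the 11 hyaluronan genes passed by edgeR and 1 by DESeq2 (3 at an unadjusted p under 0.05; lowest adjusted p by edgeR = 0.057, Hyal2), 2 of 21 genes of chondroitin sulfate synthesis were higher, 2 of 17 proteases and inhibitors were higher, 1 of 17 receptors and ligands was lower, 6 of 20 other proteoglycans were higher and 2 lower, and 2 of 13 interneuron genes were higher and 1 lower. Timp2, an inhibitor of metalloproteases, averaged 276.8 ± 25.6 CPM in shAdar1 against 89.7 ± 19.4 CPM in shControl1 (log2 1.63 ± 0.14, adjusted p = 0.00045), and Sdc2, syndecan-2, averaged 29.3 ± 2.70 CPM against 7.28 ± 2.74 CPM (log2 2.02 ± 0.22, adjusted p = 0.00090). In shControl2, Timp2 stood at 310.7 CPM and Sdc2 at 50.0 CPM, above their shAdar1 means. Adamts15 stood at 31.3 CPM in shControl2, also above its 25.2 CPM in shAdar1. Set against shControl2, Erbb4 did not pass in shAdar1 (log2 -0.28 ± 0.13, adjusted p = 0.125, edgeR). Gpc2 (1.90 ± 0.14) and Agrn (0.41 ± 0.10) were higher in shAdar1 than in shControl2 and passed. Of the 11 genes named by the same rule, 6 held with any 1 sample left out: Timp2, Sdc2, Adamts15 (log2 0.86 ± 0.15), Gpc2 (0.95 ± 0.13), Agrn (0.67 ± 0.10) and Erbb4 (-0.74 ± 0.13). Xylt1, Chst3, Sema3a, Gad1 and Sst reached an adjusted p of 0.055 to 0.24.

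In shAdar2 over shControl1, 46.4% of all genes were called, 23.2% higher and 23.2% lower, and the lists likewise held calls on both sides: 1 higher and 1 lower of 11 hyaluronan genes, 4 and 2 of 21 genes of chondroitin sulfate synthesis, 3 and 4 of 17 proteases and inhibitors, 6 and 4 of 17 receptors and ligands, 7 and 4 of 20 other proteoglycans, and 5 and 5 of 13 interneuron genes. Dsel, which is related to the epimerase that makes dermatan sulfate, fell to 27.5 ± 1.57 CPM in shAdar2, against 65.0 ± 2.27 CPM in shControl1 (log2 -1.24 ± 0.13, adjusted p = 9.8e-05). Itgb1, the beta-1 integrin subunit that binds tenascins, fell by 1.05 ± 0.17 (adjusted p = 0.0010), Erbb4 fell by 1.07 ± 0.13 (adjusted p = 0.00025), and Gad1, a GABA-synthesising enzyme, rose by 1.97 ± 0.25 (adjusted p = 0.00031). Gad1 averaged 323.1 ± 125.5 CPM in shAdar2 and 82.8 ± 0.95 CPM in shControl1, but 182.7 ± 11.0 CPM in shControl2 (SD, n = 2 each). Of the 17 genes named by the rule, 16 held with any 1 sample left out, and Hmmr, a hyaluronan receptor, reached an adjusted p of 0.21.

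Marker sums of the cell types in the cultures also differed between the groups, and these sums were not tested. The summed level of 10 neuron markers was 7653 to 9023 CPM in shAdar1, 3488 to 3921 CPM in shAdar2, 11577 to 11798 CPM in shZfr, 7141 to 7789 CPM in shControl1 and 9306 to 9928 CPM in shControl2. The 14 astrocyte markers summed to 1540 to 2399 CPM in shAdar1, 795.1 to 1409 CPM in shAdar2, 1180 to 1246 CPM in shZfr, 873 to 1282 CPM in shControl1 and 2922 to 3446 CPM in shControl2. The 12 progenitor markers summed to 919 to 2016 CPM in shAdar1, 388 to 1039 CPM in shAdar2, 2693 to 2840 CPM in shZfr, 717 to 857 CPM in shControl1 and 1658 to 1744 CPM in shControl2. The neuron sum was thus lowest in shAdar2 and highest in shZfr, where Map2 alone averaged 4463 CPM. In shZfr 2 of the 10 neuron markers were higher and 1 lower over shControl2, where 30.7% of all genes were called. Over shControl1, 4 were higher and 1 lower, where 46.2% of all genes were called, so both counts lay near those shares. Syt1 averaged 512.8 CPM in shZfr, against 723.8 CPM in shControl1 and 982.8 CPM in shControl2. The progenitor sum was highest in shZfr, where Vcan and Tnc were highest, and the astrocyte sum was highest in shControl2, where Bcan was highest. Of the 12 progenitor markers, 2 were higher and 0 lower in shZfr over shControl2, and 9 higher and 0 lower over shControl1. The 2 were Vim, at 526.6 CPM in shZfr against 167.1 CPM in shControl2, and Nes, at 467.1 against 150.2 CPM. The part of these cell types in the matrix results was not tested, and in bulk RNA fewer cells of a type and less RNA per cell cannot be told apart.

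The 12 oligodendrocyte lineage markers summed to 155.6 to 438.9 CPM in shAdar1, 104.5 to 387.8 CPM in shAdar2, 294.0 to 341.2 CPM in shZfr, 87.6 to 133.7 CPM in shControl1 and 485.0 to 489.1 CPM in shControl2. The 10 excitatory neuron markers summed to 1206 to 1319 CPM in shAdar1, 775.9 to 851.7 CPM in shAdar2, 1533 to 1556 CPM in shZfr, 944.0 to 1062 CPM in shControl1 and 1498 to 1664 CPM in shControl2. The 9 microglia markers summed to at most 5.64 CPM in any sample, and the 12 endothelial, mural and fibroblast markers to 10.4 to 35.5 CPM. Mag and Mog, of mature oligodendrocytes, had 10 and 12 counts over all samples and were at 0 in 7 and 3 of the 10, Gjb6, of mature astrocytes, was at 0 in 6, and Tmem119, of microglia, was at 0 in 9.

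**Figure D5:**
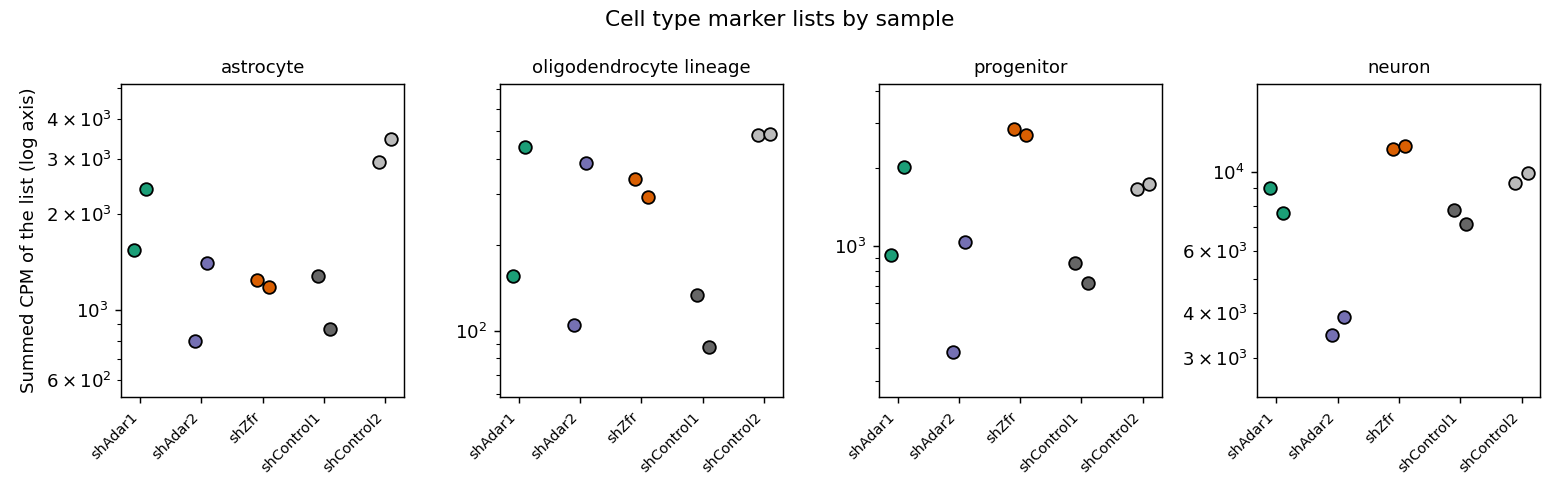
Summed TMM-normalised CPM of 4 cell type marker lists in each sample, on a log axis whose range differs between panels. The shZfr samples are highest for progenitor and neuron markers, the shAdar2 samples lowest for neuron markers, and the shControl2 samples highest for astrocyte markers.

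Over the 10 samples, the genes whose pattern was most like that of Hapln1 were Dner (Pearson r = 0.987 of log2 CPM), Cand1 (0.971), Enpp5 (0.970), Gnb1 (0.967) and Slc1a4 (0.965), of 11110 genes with a mean of at least 5 CPM. These correlations describe samples that share 5 treatments and are not a test. Dner, a Notch-related transmembrane protein of neurons, averaged 605.6 CPM in shAdar1, 430.5 CPM in shAdar2, 263.8 CPM in shZfr, 527.1 CPM in shControl1 and 595.9 CPM in shControl2, a narrower range than that of Hapln1. Among the members, Ncan came closest to Hapln1 (r = 0.783), and its neighbour Vcan had r = -0.346.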

How the data were processed

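RNA-seq of 12 libraries was analysed. Per the labels' protocols, 250 ng of RNA went into depletion of ribosomal RNA with antisense DNA oligonucleotides and Hybridase H, so RNA without a poly(A) tail is kept. For each library the authors deposited an RSEM gene table with expected counts, TPM and an abundance-weighted mean transcript length, per the file headers. Expected counts are estimates that need not be whole and are not normalised. The submitters' processing notes name RSEM 1.2.30, STAR 2.5.4b, DESeq2 1.20.0, SAMtools 1.4, Trim Galore 0.4.5 and mm9, without role or order. Strand handling was not stated. Editing tables were not used here.

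The 3 technical libraries of shAdar2 replicate 1 were summed (TPM: averaged), and counts were rounded. After filterByExpr and TMM scaling, edgeR 4.0.16 in R 4.3.3 fitted all 5 groups at once and gave quasi-likelihood tests, adjusted by Benjamini-Hochberg over 14785 genes, with calls under 0.05. The SE is the fold change divided by the square root of F. The fit was also run on data simulated from its own spread estimates, with few genes changed in the tested group. That run cannot speak to contrasts where many genes change, or to groups whose replicates differ in spread.

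Members, gene lists and comparisons were chosen with earlier results of these data known. Genes were named as members, as the 3 with the lowest p in each list (some of them only counted), as the 5 most like Hapln1, as hairpin targets or as neighbouring link proteins. Alternatives were DESeq2 1.42.0, its size factors, no filter, only the compared groups, a replicate block, each sample left out, single technical libraries, and Rn45s left out (1.67 to 5.44% of counts). Added after seeing the data were shZfr summed, technical libraries 1 and 3 only, a crossed block, the list counts under these settings, and the contrast of shAdar2 with shAdar1.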

Additional observations from a re-analysis of the deposited data

Results flagged for a closer look

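The shAdar1 and shAdar2 changes against shControl1 differed at 6 of 8 members in the direct contrast of shAdar2 with shAdar1 (edgeR, adjusted over 14785 genes, of which 38% were called). Hapln1 differed by -2.51 ± 0.19 on the log2 scale (adjusted p = 4.7e-05), with 16.4 and 13.7 CPM in shAdar2 against 87.1 and 85.4 CPM in shAdar1. Ncan differed by -1.07 ± 0.12 (adjusted p = 0.00023). Vcan differed by -0.99 ± 0.25 (adjusted p = 0.012; 0.056 without shAdar1 replicate 2), Tnr by -0.84 ± 0.19 (adjusted p = 0.0077), and Tnc by -1.004 ± 0.32 (adjusted p = 0.033; 0.18 without shAdar1 replicate 2 and 0.12 without shAdar2 replicate 1). Acan was the member higher in shAdar2, by 2.40 ± 0.76 (adjusted p = 0.032), and without shAdar2 replicate 1 this was 0.90 (adjusted p = 0.32); it was also lost without either shAdar1 sample (adjusted p = 0.086 and 0.16). Both groups were compared with the same shControl1 samples, and the neuron marker sum was 3488 to 3921 CPM in shAdar2 against 7653 to 9023 CPM in shAdar1, whose part in these differences was not tested. Fitted with these 2 groups alone, Acan, Vcan, Tnr and Tnc had adjusted p of 0.059 to 0.11.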

How the results depend on the processing

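The Hapln1 calls kept their direction and stayed under 0.05 in every alternative run, with a change over shControl1 of 1.097 to 1.71 in shAdar1 and -1.57 to -0.81 in shAdar2. Outside the shZfr contrasts, single-member fold changes stayed on their side of the threshold in 509 cases, lost the call in 40 and gained it in 35, and none changed sign where called; in shZfr 174 of the values moved within their spread and 2 moved further. Causes of the changes given here were not tested. With 2 samples a group and 9 to 41 counts for Hapln4 and Hapln1 in single shZfr samples, depth limits those values.

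Members called came to 6 without the filter in shAdar1 over shControl1 (3 as reported) and to 1 in shAdar1 over shControl2 (0) without the filter and with only the 2 groups. With only the 2 groups they came to 1 in shAdar2 over shControl1 (2) and 2 in shAdar2 over shAdar1 (6). With each sample left out, the number of members called also moved in shAdar2 over shControl1, in shAdar2 over shAdar1 and in shControl2 over shControl1. Members called in shZfr are not counted, since its contrasts chose the set.

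Genes called with each sample left out came to 784 to 1557 in shAdar1 over shControl1 (2400 as reported), 1770 to 3588 in shAdar1 over shControl2 (4909), 3654 to 7084 in shAdar2 over shAdar1 (5625), 3574 to 5163 in shControl2 over shControl1 (6367), 1866 to 2604 in shZfr over shControl2 (4542) and 4230 to 5338 in shZfr over shControl1 (6824). With only the 2 groups they came to 4047 in shAdar2 over shControl1 (6856), 2445 in shAdar2 over shAdar1 and 7909 in shZfr over shControl2. With shZfr summed, they came to 2009 over shControl2 and 4362 over shControl1.

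List calls in shZfr over shControl2 with the shZfr samples summed came to 1 for hyaluronan (5), 2 for chondroitin sulfate synthesis (8), 1 for proteases (3), 1 for receptors (12), 5 for other proteoglycans (10) and 3 for interneuron genes (7). With each sample left out, in the same order, they came to 1 to 2, 2 to 3, 1 to 1, 1 to 4, 4 to 8 and 3 to 4. In shAdar1 over shControl1 they came to 0 to 1 for hyaluronan (0), 0 to 2 for chondroitin sulfate synthesis (2), 0 to 1 for receptors (1), 3 to 6 for other proteoglycans (8) and 1 to 4 for interneuron genes (3). In shAdar2 over shControl1 they came to 1 to 5 for hyaluronan (2), 6 to 10 for chondroitin sulfate synthesis (6) and 7 to 14 for other proteoglycans (11). Ranked by Spearman correlation, 1 of the 5 genes most like Hapln1 was shared.

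Deviations of same-numbered replicates correlated at -0.12 to 0.28 between groups, highest between shAdar1 and shAdar2. The labels tie no numbers across groups and 2 numbers a group are too few to establish pairing, so the samples share only a number. With the replicate number as a block, genes called came to 2342, 6827, 4913, 8840, 6441, 4564, 6846 and 5654 in shAdar1 and shAdar2 over shControl1, shAdar1 and shAdar2 over shControl2, shControl2 over shControl1, shZfr over shControl2 and over shControl1, and shAdar2 over shAdar1. Under the block, 1 member was called in shAdar1 over shControl2 (Tnc, adjusted p = 0.017) and 7 in shAdar2 over shAdar1 (Hapln4 added, 0.044), while in shAdar1 over shControl1 Tnr was lost (0.058) and Vcan gained (0.047). With shAdar1 and shControl1 numbers crossed, 5 members were called.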
